A study of Homo sapiens with 8 samples.

Results

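Heterotrimeric G protein subunits were described in 8 clones of RPMI-8402, an established human line from a T-cell acute lymphoblastic leukaemia. The series holds 4 NKX2-1 knockout (KO) clones, named C12, C15, S04 and S36, and 4 wild-type (WT) clones, named WT10, WT13, WT28 and WT30, all grown untreated in the same medium. Each clone gave 1 library of bulk RNA, and the kind of edit in NKX2-1 and the meaning of the letters C and S are not given in the labels. The 9 genes were taken by symbol from the 61228 in the count table: the alpha subunit genes GNA11, GNAQ, GNA15, GNA12, GNA13, GNAI2 and GNAI3 and the beta subunit genes GNB1 and GNB2. GNA11 was chosen from its measured value in the KO against WT comparison, and its relatives were added by family. The difference between KO and WT clones is therefore given for these genes as a description, with no p-value.

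A heterotrimeric G protein is an alpha, a beta and a gamma subunit on the inner face of the plasma membrane. An activated receptor makes the alpha subunit exchange GDP for GTP, after which alpha and the beta-gamma pair each act on effectors until the alpha subunit hydrolyses the GTP. Subunits of the Gq/11 class, encoded by GNAQ, GNA11, GNA15 and GNA14, switch on phospholipase C beta, which raises calcium and activates protein kinase C. Those of the G12/13 class switch on exchange factors for the small GTPase RhoA, those of the Gi class restrain adenylyl cyclase and carry most chemokine signals in lymphocytes, and Gs stimulates adenylyl cyclase. GNA15 is known for its restriction to blood-forming cells, whereas GNAQ and GNA11 are expressed in most tissues.

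The genes of the Gq/11 class are close relatives, which bears on how far reads can tell them apart in GENCODE release 29 transcripts. Over the whole coding sequence GNA11 was identical to GNAQ at 78.6% of aligned bases and to GNA15 at 70.9%. The longest run shared by GNA11 with GNAQ was 26 bases and with GNA15 32 bases, and no stretch of 50 bases in the GNA11 transcript occurred in a GNAQ or GNA15 transcript. Stretches of 50 bases found in another gene's transcripts made up 10.9% of the GNA11 transcript, 5.33% of that of GNA15 and 4.39% of that of GNAQ. For GNAQ they lay in the pseudogene GNAQP1, which had at most 1 count in any clone. For GNA11 they lay in 2 genes on the opposite strand, both listed at 0 counts in all 8 clones, and in AC008267.1. Counts of AC008267.1 were not looked up. For GNA15 the stretches lay in AC005264.1 on the opposite strand, which is not listed among the genes counted. The strand setting of the counting is not given, so counts of 0 do not show how reads over shared bases were counted.

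Library totals were 2730285 counts in C15 and 12344549 to 25423215 in the other KO clones, against 18453947 to 22916424 in WT clones. Levels are given in CPM, the counts of a gene per 1000000 counts of its library, with totals adjusted by TMM factors. Where no read was counted, up to 3 counts are possible by counting error alone, or 1.21 CPM in C15 and 0.116 to 0.229 CPM in the other clones. T-cell markers were at a summed level of 1692 to 2157 CPM in KO clones and 1688 to 2061 CPM in WT clones, while B-cell markers summed to at most 16.9 CPM, myeloid markers to at most 1.87 CPM, and HBA1, HBB, PF4, EPCAM and KRT19 were at 0 in every clone. Some markers differed between the groups: CD5 was at 37.1 to 71.2 CPM in KO clones and 84.8 to 116 CPM in WT clones, CD28 at 4.74 to 13.6 CPM in KO clones and 19.96 to 26.99 CPM in WT clones, and CD7 at 1.30 to 3.803 CPM in KO clones and 5.59 to 6.55 CPM in WT clones. The B-cell marker CD79A was at 0.543 to 2.74 CPM in KO clones and 3.83 to 7.40 CPM in WT clones. KO and WT clones did not overlap for 10.1% of all tested genes. Of 4 fibroblast markers, summing to 6.50 to 15.2 CPM in KO clones and 14.4 to 21.1 CPM in WT clones, COL1A1 gave most and COL1A2 was at 0. NKX2-1 itself had 72.0 CPM in C12 and 11.3 in C15, with 83.6 in S04 and 33.4 in S36, against 53.6 to 63.2 CPM in WT clones, and gene counts do not show an edit of its sequence. Mitochondrially encoded genes took 14.9% to 21.2% of counts in KO clones and 12.9% to 15.1% in WT clones, and the part of these differences in the results was not tested.

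GNA11 was far below GNAQ and GNA15 in every clone, and lower in KO clones than in WT clones. It had 2.16 and 2.42 CPM in C12 and C15 and 2.29 and 1.99 CPM in S04 and S36, against 9.63 CPM in WT10, 13.2 in WT13, 7.69 in WT28 and 6.30 in WT30. The groups did not overlap, with 2.42 CPM in the highest KO clone and 6.30 CPM in the lowest WT clone. The mean was 2.22 ± 0.186 CPM in KO clones and 9.20 ± 2.98 CPM in WT clones (SD, n = 4 each). KO over WT, the log2 fold change was -2.07 (SE 0.28), or 0.238 times the WT level. The KO values rest on 56, 6, 38 and 26 counts and the WT values on 181, 251, 163 and 142. In C15 the 95% Poisson interval was 0.889 to 5.27 CPM, which still ends below the lowest WT clone. In bulk RNA fewer cells with a transcript and less of it per cell cannot be told apart.

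Among the KO clones the highest GNA11 level was 1.22 times the lowest, and among the WT clones WT13 was 2.09 times WT30. The counting interval of C15 alone was wider than the spread of the KO clones, and a gene chosen for its difference between groups is likely to have little spread within them, so nothing is read from how close the KO values lay.

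**Figure D1:**
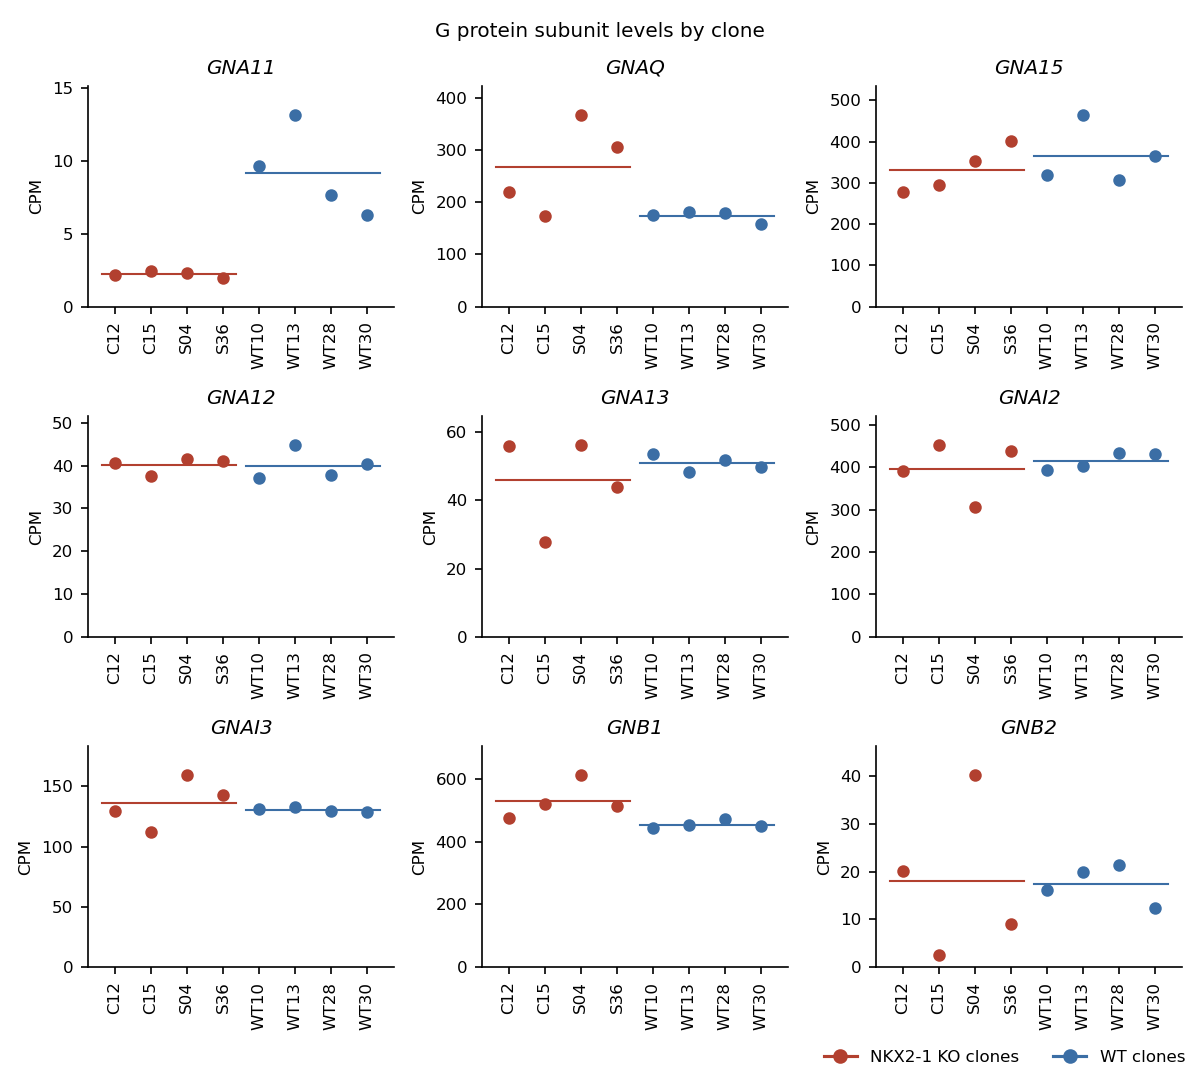
Level of each of the 9 subunit genes in each clone, in CPM on linear axes from 0, with NKX2-1 KO clones to the left and WT clones to the right of each panel; each point is 1 library and each line the mean of its 4 clones. GNA11 lies at 1.99 to 2.42 CPM in KO clones and 6.30 to 13.2 CPM in WT clones, GNAQ is high in S04 and S36, and GNB2 spreads from 2.42 to 40.2 CPM among KO clones.

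GNAQ, the close paralog of GNA11, was higher than in every WT clone in 3 of the 4 KO clones. It had 220 and 173 CPM in C12 and C15 and 368 and 306 CPM in S04 and S36, against 176 CPM in WT10, 182 in WT13, 179 in WT28 and 158 in WT30. C15 lay within the WT range, so the groups overlapped. The log2 fold change was 0.62 (SE 0.21), opposite in sign to that of GNA11. It was 0.94 with S clones only and 0.17 with C clones only.

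GNAQ lies on the minus strand of chromosome 9, from 77716087 to 78031458 in hg38 by GENCODE release 29, and the chromosome's genes as a whole sat above the WT mean in the KO clones. The median log2 difference over 511 tested genes of that chromosome was 0.21 and 0.37 in C12 and C15 and 0.40 and 0.35 in S04 and S36, against -0.012 to 0.032 in WT clones. GNAQ itself differed from the WT mean by 0.35 and -0.0025 in C12 and C15, and by 1.08 and 0.82 in S04 and S36. The part of the chromosome in the GNAQ values was not tested. GNAQ was thus above its chromosome in C12, S04 and S36 and below it in C15.

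GNA15, the blood-cell member of the class, had overlapping levels in KO and WT clones. It had 278 and 294 CPM in C12 and C15 and 353 and 402 CPM in S04 and S36, against 319 CPM in WT10, 465 in WT13, 306 in WT28 and 366 in WT30. C12 and C15 were below every WT clone, and S04 and S36 were within the WT range. The log2 fold change was -0.13 (SE 0.18), less than its error. WT13 was the highest WT clone for GNA15 and for GNA11, but WT30, lowest in GNA11, was second in GNA15. GNA14, the fourth gene of the class, had at most 11 counts in any clone and was not tested.

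Compared per length of transcript, GNA15 gave most of the class and GNA11 very little. In WT clones the mean level was 171 ± 33.8 CPM per kilobase for GNA15, 26.6 ± 1.67 for GNAQ and 2.22 ± 0.718 for GNA11 (SD, n = 4), and no clone of one gene reached the level of the next. GNA11 took 0.203% to 0.354% of the summed level of the 3 genes in KO clones and 0.771% to 1.30% in WT clones. GNAQ took 20.4% ± 3.78 in KO clones and 13.6% ± 2.22 in WT clones, and GNA15 79.3% ± 3.75 in KO clones and 85.3% ± 2.27 in WT clones. The GNAQ shares did not overlap, though C15 at 16.1% was near WT28 at 15.85%, and those of GNA15 did. The summed level of the class was 197 ± 37.5 CPM per kilobase in KO clones and 199.5 ± 34.7 in WT clones, a difference well within the spread between clones. These shares rest on the lengths of principal transcripts in the annotation, and transcript ends used in these cells may differ.

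Ratios of counts within a clone need no scaling between libraries and again placed GNA11 below GNAQ and GNA15 in every clone. They are not corrected for length, and S04 had slightly fewer counts of GNA15 than of GNAQ. The log2 ratio of GNA11 to GNAQ was -6.67 and -6.16 in C12 and C15 and -7.33 and -7.27 in S04 and S36, against -4.19 in WT10, -3.79 in WT13, -4.54 in WT28 and -4.65 in WT30. For GNA11 to GNA15 it ran from -7.66 to -6.92 in KO clones and from -5.86 to -5.05 in WT clones. Both ratios separated the groups, by a mean of -2.57 against GNAQ and -1.87 against GNA15. The ratio of GNA15 to GNAQ also did not overlap, at -0.058 to 0.76 in KO clones and 0.77 to 1.35 in WT clones, although C15 and WT28 differed by little. Since these ratios hold the value by which GNA11 was chosen, they describe the clones and are no separate support.

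**Figure D2:**
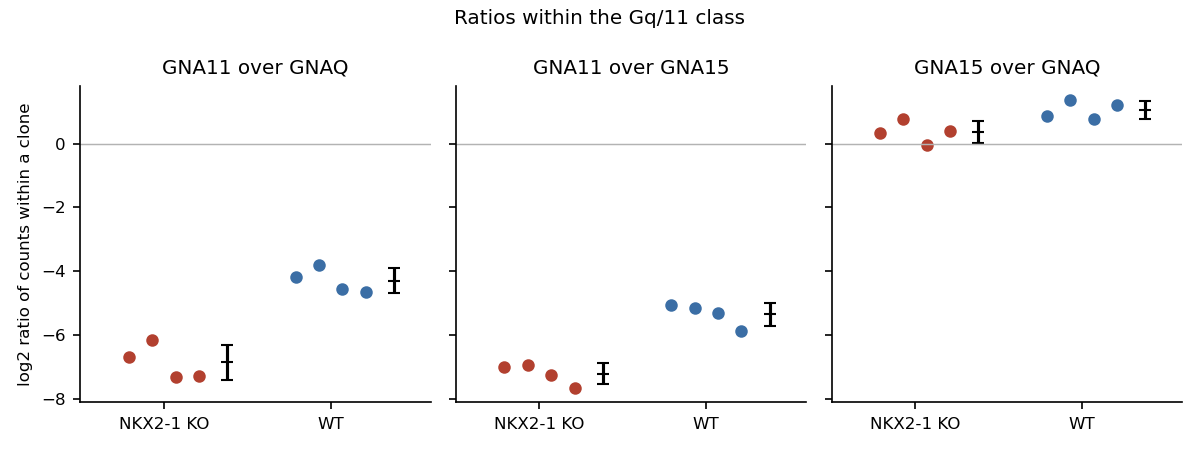
Log2 ratio of deposited counts between pairs of Gq/11 class genes in each clone, not corrected for length; points are clones, NKX2-1 KO at the left and WT at the right of each panel, and bars are the mean ± SD of 4 clones. Both ratios with GNA11 lie lower in all KO clones than in any WT clone, and the ratio of GNA15 to GNAQ comes close between the groups, at 0.76 in the highest KO clone and 0.77 in the lowest WT clone.

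The alpha subunits of the Gi and G12/13 classes had small differences. GNAI2, the main Gi alpha subunit of lymphocytes, had 391 and 453 CPM in C12 and C15 and 306 and 440 CPM in S04 and S36, against 394 to 435 CPM in WT clones, a log2 fold change of -0.066 (SE 0.15). C12 and S04 stood below and C15 and S36 above every WT clone, C12 by a small step. GNAI3, a second Gi alpha subunit, was at 130, 112, 159 and 143 CPM in C12, C15, S04 and S36, against 129 to 133 CPM in WT clones (0.060, SE 0.14). WT clones were within 1.03 times of each other, with C15 below them, C12 among them and S04 and S36 above. The annotated GNAI3 transcript overlaps exons of AMPD2 on its own strand and GNAT2 on the other, so its counts are uncertain and no level per length is given.

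GNA12 had KO clones closest together of all members, at 37.5 to 41.6 CPM in KO clones and 37.1 to 44.8 CPM in WT clones, with a log2 fold change of 0.011 (SE 0.13). GNA13, which restrains the growth and spread of germinal-centre B cells, had 55.9 and 27.9 CPM in C12 and C15 and 56.2 and 43.9 CPM in S04 and S36, against 48.4 to 53.6 CPM in WT clones. Its log2 fold change was -0.13 (SE 0.20), and the value in C15 rests on 69 counts. C12 and S04 were above and C15 and S36 below every WT clone, so the KO clones split.

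Of the beta subunits, GNB1 was higher in every KO clone than in any WT clone, by a small step. It had 474 and 521 CPM in C12 and C15 and 612 and 512 CPM in S04 and S36, against 444 CPM in WT10, 452 in WT13, 473 in WT28 and 448 in WT30. C12 and WT28 were nearly level, and the log2 fold change was 0.22 (SE 0.13). GNB2 varied most among the KO clones, at 20.2 and 2.42 CPM in C12 and C15 and 40.2 and 9.09 CPM in S04 and S36, against 16.2 CPM in WT10, 19.9 in WT13, 21.4 in WT28 and 12.3 in WT30. The highest KO clone was 16.6 times the lowest, against 1.73 times in WT clones, and the C15 value rests on 6 counts. The mean log2 fold change of 0.11 (SE 0.53) averages clones on either side of WT, and was -0.58 without S04 and 0.41 without C15.

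All 9 genes passed the filter on low counts. By the edgeR quasi-likelihood test with Benjamini-Hochberg adjustment over 14243 genes, 1 of the 9 was called, GNA11, lower in KO clones, where 0.316% of all tested genes were called in either direction and 0.176% lower. GNA11 was put forward for that call, so nothing is read from the count. The call was lost when S04, S36 or any 1 WT clone was left out, fits that called 3 to 20 genes in all, while the log2 fold change stayed between -2.22 and -1.85. It ranked ninth of the 25 genes called lower by the size of the change. KO and WT clones did not overlap for 2 of the 9, GNA11 and GNB1, against 10.1% of all tested genes. The median log2 fold change of the 9 was 0.011, and that of all tested genes 0.020.

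The comparison of C-named with S-named KO clones was not used to choose the members. By the edgeR quasi-likelihood test 0 of the 9 genes were called, where 0.358% of all tested genes were, and 1 of the 9, GNAQ, had an unadjusted p under 0.05, as had 17.1% of all tested genes. GNAQ averaged 197 CPM in C clones and 337 CPM in S clones, a log2 difference of -0.77 (SE 0.17, edgeR adjusted p = 0.0792). It passed with DESeq2 (adjusted p = 0.0108) and with no filter on low counts (edgeR adjusted p = 0.0262). Those fits called 651 and 762 genes in all. It did not pass with limma-voom (adjusted p = 0.0775) or RLE size factors (edgeR adjusted p = 0.0794), fits that called 89 and 14 genes. Without any 1 WT clone the edgeR adjusted p was 0.159 to 0.1715, in fits that called 0 genes in all. Leaving out 1 KO clone leaves 1 clone on its side, so only the log2 difference is given, -0.96 to -0.62. The difference of GNA11 between C and S clones was 0.058 (SE 0.43, edgeR adjusted p = 0.985). Its approximate 95% interval was -0.79 to 0.90, from a normal multiple of the SE, which is narrow for so few clones. For GNA15 the difference was -0.40 (SE 0.21, edgeR adjusted p = 0.364) and for GNAI3 -0.32 (SE 0.15, edgeR adjusted p = 0.311).

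GNA11 and GNA15 are neighbours on chromosome 19 of the hg38 build. GENCODE release 29 places GNA11 from 3094410 to 3124004 and GNA15 from 3136193 to 3163769, both on the plus strand, 12.2 kb apart. Each has 7 exons in its principal transcript. Genes as a whole on chromosome 19 lay near the WT mean: the median log2 difference from the WT mean over 952 tested genes was -0.0082 to 0.057 in KO clones, where GNA11 was at -2.10 to -1.82. Of 28 other protein-coding genes with a start within 500 kb of that of GNA11 or GNA15, 19 were tested, and their median log2 fold change was -0.027.

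None of these 19 neighbours was called by the edgeR quasi-likelihood test, with 3 (15.8%) at an unadjusted p under 0.05, against 15.5% of all tested genes. DESeq2 called 2 of them among 521 genes in all and limma-voom 1 among 94. Next to GNA11 on the other side from GNA15 lies TLE5, a gene of the Groucho family. It averaged 8.10 ± 4.15 CPM in KO clones and 13.2 ± 3.17 CPM in WT clones, with as few as 9 counts in C15 (-0.63 on the log2 scale, SE 0.34, edgeR adjusted p = 0.396). The groups overlapped. Beyond it TLE2 and TLE6, of the same family, had 0 counts in every KO clone and at most 5 in any WT clone, too few to test. On the far side of GNA15, S1PR4, a sphingosine 1-phosphate receptor gene of lymphocytes, differed by -0.11 (SE 0.19, edgeR adjusted p = 0.834), and NCLN, a gene for an endoplasmic reticulum membrane protein, 0.14 (SE 0.20, edgeR adjusted p = 0.782).

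In 2 of the 19 neighbours, named after their values were seen, all KO clones were below all WT clones, and in 0 all were above. That is 10.5% without overlap, near the 10.1% of all tested genes. CELF5, of an RNA-binding family, had 26, 0, 21 and 5 counts in C12, C15, S04 and S36, against 59, 61, 66 and 52 in WT clones (-1.84 on the log2 scale, SE 0.45, edgeR adjusted p = 0.121). GNG7, a G protein gamma subunit gene whose start lies at -391.7 kb from that of GNA11, was at 2.29 to 10.1 CPM in KO clones and 11.6 to 13.2 CPM in WT clones (-1.41, SE 0.35, edgeR adjusted p = 0.123). Neither passed the threshold. DESeq2 called both, and limma-voom and the fit without C15, with 114 genes called in all, called GNG7.

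**Figure D3:**
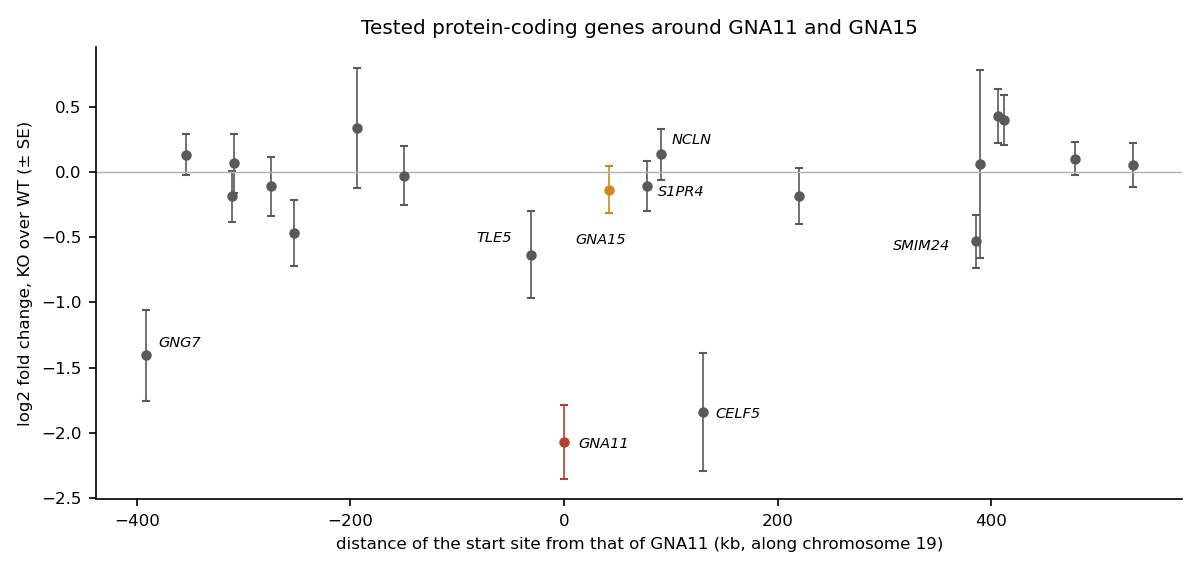
Log2 fold change of KO over WT (± SE) for the tested protein-coding genes around GNA11 and GNA15, against the distance of their start sites from that of GNA11 in kb. GNA11 is at -2.07 and GNA15 at -0.13, and among the others CELF5 at -1.84 and GNG7 at -1.41 stand lowest.

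The bases before the start of GNA11 are shown because it was the member with the lower level in KO clones. They span chr19:3094112-3094361 on the plus strand, from RefSeq on GRCh38.p14.
GNA11 upstream: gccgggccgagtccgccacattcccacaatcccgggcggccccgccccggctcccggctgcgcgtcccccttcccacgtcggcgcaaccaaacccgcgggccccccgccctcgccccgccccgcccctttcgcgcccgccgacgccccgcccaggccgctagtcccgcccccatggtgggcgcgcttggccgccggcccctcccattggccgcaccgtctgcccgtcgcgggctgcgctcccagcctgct
These 250 bases are 80.4% G or C and hold 37 CpG. Promoter windows of 300 bases, from 250 before to 50 after the start, were found in the same source for 7 of the 9 members. The core CAAGTG of NK2-class homeobox factors, searched on both strands and also a form of the E-box, is in the GNB2 window alone of those 7 members and in 11.5% of 35116 such windows. The RUNX core TGTGGT is in a window around an alternative start of GNAI2, past that start, and in 13.1% of all windows. Neither is in the GNA11 window, which says only that these letters are not there.

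GNA11 transcripts are rich in G and C, at 62.8%, as are those of GNA15 (62.2%) and GNB2 (64.4%), while GNAQ is at 38.6%. Genes with a transcript of at least 60% G and C had a median log2 difference from the WT mean of -0.029 and 0.097 in C12 and C15 and -0.13 and 0.047 in S04 and S36, against -0.044 to 0.039 in WT clones. The part of base composition in the GNA11 values was not tested.

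Genes that act with these subunits, 156 in 9 lists by role, were set beside them, and 93 were tested. By the edgeR quasi-likelihood test 0 were called, where 0.316% of all genes tested were called. At an unadjusted p under 0.05 there were 14 (15.1%), against 15.5% of all tested genes. DESeq2 called 6 of the pathway genes among 521 genes in all, and limma-voom 4 among 94. Without C12 the count was 2 (GNAS and CXCR4) among 456, and without C15 it was 4 (GNAO1, GNAZ, GNG7 and S1PR2) among 114. The median log2 fold change was -0.037 over the 93, 43 above 0 and 50 below, against 0.020 over all tested genes. KO clones lay wholly above WT clones for 2 of them and wholly below for 5, or 7.53%, against 10.1% of all tested genes for both together.

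Among the other subunits 9 of 24 were tested and 0 called, with a median of -0.019. GNAS, which encodes the alpha subunit of Gs, was at 415 ± 162 CPM in KO clones and 744 ± 74.3 CPM in WT clones (-0.84 on the log2 scale, SE 0.24, edgeR adjusted p = 0.161). All KO clones were below all WT clones, but the spread among KO clones was wide. The beta subunit genes GNB4 (log2 fold change 0.16, SE 0.13) and GNB5 (-0.019, SE 0.15) differed by about their error or less. GNAZ, a Gi class alpha subunit gene named after its values were seen, had the lowest fold change of this list at -2.13 (SE 0.62, edgeR adjusted p = 0.165), with 1.67 ± 2.12 CPM in KO clones and 4.67 ± 1.37 CPM in WT clones.

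Of the regulators, RGS proteins, which speed the hydrolysis of GTP by alpha subunits, had 11 of 21 tested and 0 called (median 0.17). RGS10 was at 50.3 ± 8.43 CPM in KO clones and 48.4 ± 6.30 in WT clones, RGS12 at 28.0 ± 4.83 in KO clones and 24.97 ± 2.48 in WT clones, and RGS19 at 29.95 ± 16.3 in KO clones and 36.2 ± 2.95 in WT clones. RIC8A and RIC8B, chaperones of alpha subunits, had log2 fold changes of -0.22 (SE 0.32) and 0.13 (SE 0.15), and PDCL, which helps assemble beta-gamma pairs, 0.24 (SE 0.18). RIC8A, the chaperone of the Gq, Gi and G12/13 classes, ranged from 10.5 to 38.8 CPM among KO clones. Of the receptor kinases and arrestins, which end receptor signalling, 7 of 9 were tested and 0 called, with log2 fold changes of 0.26 (SE 0.16) for GRK2, -0.30 (SE 0.20) for GRK3 and -0.15 (SE 0.16) for ARRB2.

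Downstream of the Gq/11 class 15 of 16 effector genes were tested and 0 called, with a median of -0.011. As log2 fold changes, ITPR2, an inositol trisphosphate receptor that releases calcium, was at -0.011 (SE 0.21), PRKCB at 0.091 (SE 0.16) and PRKCQ, the protein kinase C of T-cell receptor signalling, at -0.063 (SE 0.14). The phospholipase genes themselves were at -0.40 (SE 0.24) for PLCB1, 0.00054 (SE 0.34) for PLCB2 and -0.26 (SE 0.23) for PLCB3. KO clones were wholly above WT clones in TRIO, an exchange factor that Gq can bind, at 16.9 ± 7.80 CPM in KO clones and 7.24 ± 1.71 CPM in WT clones (1.24, SE 0.30, edgeR adjusted p = 0.118), and in ITPR1 (0.52, SE 0.17, edgeR adjusted p = 0.187). The phospholipase genes, TRIO and ITPR1 were named after their values were seen. Of 15 genes that respond to calcium, protein kinase C or YAP, 7 were tested and 0 called, with log2 fold changes of -0.064 (SE 0.21) for JUN, -0.098 (SE 0.24) for RCAN1 and -0.52 (SE 0.75) for ANKRD1.

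The effectors of the other classes gave 0 calls among 7 tested genes of G12/13 (median -0.26) and 11 tested genes of Gs, Gi and beta-gamma (median -0.094). On the log2 scale RHOA differed by 0.020 (SE 0.17), ROCK1 by -0.26 (SE 0.16) and ROCK2 by -0.28 (SE 0.21). The protein kinase A genes PRKACB, PRKAR1A and PRKAR1B had log2 fold changes of 0.052 (SE 0.18), -0.094 (SE 0.14) and -0.13 (SE 0.22).

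Of 40 lymphocyte receptor genes 22 were tested and 0 called, with a median of -0.16. CXCR4, the Gi-coupled chemokine receptor that holds leukaemic and immature T cells near its ligand CXCL12, was at 233 ± 36.04 CPM in KO clones and 396 ± 34.04 CPM in WT clones. The groups did not overlap, and the log2 difference was -0.77 (SE 0.15, edgeR adjusted p = 0.0749). S1PR2, a receptor of the G12/13 class named after its values were seen, was at 1.80 ± 0.720 CPM in KO clones and 4.34 ± 0.562 CPM in WT clones, again without overlap (-1.41, SE 0.30, edgeR adjusted p = 0.0919). The highest KO clone was at 2.83 CPM and the lowest WT clone at 3.73 CPM, and counting error at these levels was not tested. P2RY11, a Gq-coupled receptor for ATP, was at 153 ± 11.02 CPM in KO clones and 127 ± 19.2 CPM in WT clones (0.26, SE 0.14, edgeR adjusted p = 0.407).

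**Figure D4:**
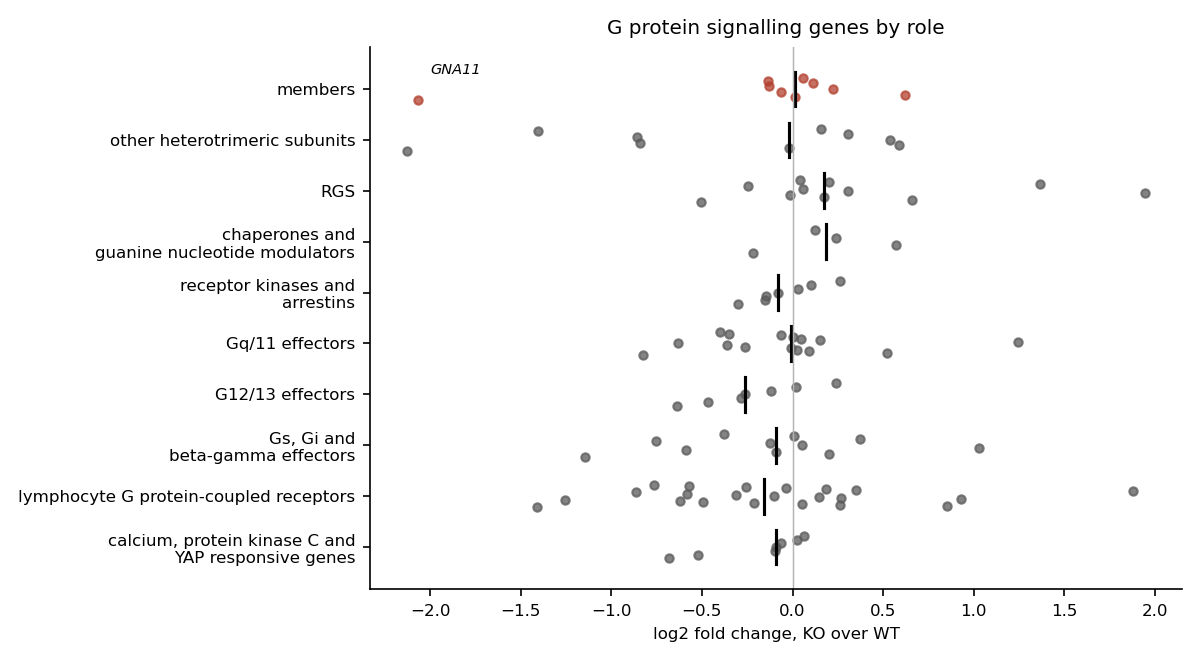
Log2 fold change of KO over WT for the 9 members (red, top row) and for the tested genes of 9 lists by role in G protein signalling (grey); each point is 1 gene and each black bar the median of its row. GNA11 at -2.07 stands apart from the other members, which lie between -0.13 and 0.62, and the medians of the rows lie between -0.26 and 0.18.

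The genes with a pattern across the 8 clones most like that of GNA11, by Pearson correlation of log2 CPM among 7860 genes with a mean of at least 5 CPM, were RALGAPB (0.983), ZNF827 (0.949), SH3PXD2B (0.949), UMODL1 (0.948) and PTPRF (0.942). In all 5 the KO clones were below the WT clones, as in GNA11, and the correlations share that split between the groups. Their sizes differed, with log2 fold changes of -0.39 (SE 0.13) for RALGAPB, a subunit gene of a GTPase-activating complex for Ral, and -3.55 (SE 0.48) for PTPRF, a receptor phosphatase gene. These 5 were picked as the highest of 7860, so the other members could only be lower. The members' correlations with GNA11 were 0.36 for GNA15, -0.65 for GNAQ, -0.70 for GNB1 and between -0.17 and 0.27 for the rest.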

How the data were processed

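The authors deposited raw counts per gene symbol for the 8 clones in a single table. The tools named, per the submitters' processing notes, are TopHat2, Subread, SAMtools and FastQC, with the hg38 build. For their roles, versions, annotation and strand setting the entry is "not given in the sources used here", so reads of overlapping genes on opposite strands cannot be told apart. Counts of clones within a group differed by a chi-square per degree of freedom of at least 29.5 among KO clones and 13.8 among WT clones, and each was kept as its own sample.

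Counts were filtered with filterByExpr, scaled with TMM and tested with the two-sided quasi-likelihood test of edgeR 4.0.16 (R 4.3.3) over 14243 genes, with Benjamini-Hochberg adjustment and a threshold of 0.05. A standard error is the log2 fold change over the square root of the test's F. C-named and S-named clones entered a 3-group fit with WT. DESeq2 1.42.0, limma-voom 3.58.1, RLE size factors, no low-count filter, each clone left out, C or S clones only, and libraries without 173 mitochondrial and histone symbols were alternatives. Log2 CPM used a prior count of 2. Of 61228 symbols, 56912 were matched to GENCODE release 29, and lengths are medians over principal transcripts. Differences of a WT clone are from the other WT clones.

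Members, lists and rules were chosen with earlier results of these data known. The rule named all members, up to 3 genes of each list by mean CPM plus any called, the nearest neighbours of GNA11 and the 5 genes most correlated with it. Cultures and dates are not in the labels, and the spread behind each p-value is that of these libraries, which may be technical in part. A marker gene and a stretch of coding sequence are not reported here.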

Additional observations from a re-analysis of the deposited data

How the results depend on the processing

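The log2 fold change of GNA11 kept its sign in all 15 alternatives, at -2.22 to -1.85 with each clone left out and -2.11 to -1.99 otherwise, a direction already fixed by groups that do not overlap. The count of the 9 members called was 1 with all clones and ran from 0 to 1 with each clone left out: it was 0 without S04, S36, WT10, WT13, WT28 or WT30, fits that called 3 to 20 genes in all. It was 0 with C clones only, a fit that called 6 genes in all. It was 2, GNA11 and GNAQ, with S clones only, a fit that called 2211 genes in all. Of 120 values of the other members, 118 moved by less than the SD between clones, and GNAQ (0.17) and GNAI3 (-0.12) moved more with C clones only. That SD is each gene's own and is wide for GNB2, at 1.24 on the log2 scale, so a move below it can include a change of sign. The sign differed from that reported in 7 of 15 alternatives for GNA12, 4 for GNB2, 2 each for GNAI2 and GNAI3 and 1 each for GNA13 and GNA15, and in 0 for GNAQ and GNB1. Between C and S clones the count of members called was 1, GNAQ, with DESeq2 and with no low-count filter. Those fits called 651 and 762 genes in all. The count was 0 with any 1 WT clone left out, in fits that called 0 genes in all. Fits without 1 KO clone leave 1 clone on its side, so their counts are not given.

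Pathway genes called numbered 0 in the fit reported, 9 with no low-count filter, 6 with DESeq2, 4 with limma-voom, 16 with S clones only and 0 to 4 with each clone left out. All genes called numbered 45 in the fit reported, 581 with no low-count filter, 521 with DESeq2, 94 with limma-voom and 2211 with S clones only. Genes near GNA11 and GNA15 called numbered 0 in the fit reported, 2 with no low-count filter, 2 with DESeq2, 1 with limma-voom, 3 with S clones only and 0 to 1 with each clone left out. The cause of these differences was not tested. No paired analysis was possible because the labels give the clones no numbers shared between the groups. The depth of C15 limits GNA11 and GNB2, each with 6 counts there.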
